A study of Mus musculus with 4 samples.

Results

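The genes that carry pyruvate into the mitochondrion, oxidise it and run the citric acid cycle were compared between mouse hearts at 12 months and at 8 weeks of age. The set holds 33 genes, each taken as the row of the deposited gene table that bears its symbol, out of 28723 genes in the table. It comprises 2 subunits of the mitochondrial pyruvate carrier, and 5 core subunits, 4 kinases and 3 phosphatase parts of the pyruvate dehydrogenase complex. It also holds 12 enzyme subunits of the cycle, 2 enzymes that replenish it or draw on it and 2 lactate dehydrogenase subunits. The last 3 are enzymes of the malate-aspartate shuttle, whose other enzyme, Mdh2, is counted with the cycle. The RNA came from the hearts of C57BL/6J mice, without treatment, and was sequenced in 2 libraries at 12 months (titled FLOX5 and FLOX6) and 2 libraries at 8 weeks (titled C4 and C5). Both ages carry the genotype label WT, were housed free of specific pathogens and received no intervention. The labels give the age in a field named batch, and the title series, FLOX or C, changes with it. A difference of age therefore cannot be told apart here from one of title series or of a batch shared by its libraries. The labels name no floxed allele, no sex and no pooling of animals, and they do not say whether the 2 libraries of an age came from separate mice, so the p-values below measure only the spread between these libraries.

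Pyruvate made by glycolysis, or from lactate by lactate dehydrogenase, crosses the inner mitochondrial membrane through the pyruvate carrier and is converted to acetyl-CoA by the pyruvate dehydrogenase complex. Kinases switch that complex off by phosphorylating its E1 alpha subunit, and phosphatases remove the phosphate and switch it on again. Acetyl-CoA enters the citric acid cycle, whose dehydrogenases supply NADH to the respiratory chain, while the malate-aspartate shuttle moves the electrons of cytosolic NADH into the mitochondrion. Heart muscle takes most of its fuel from fatty acids, and the pyruvate dehydrogenase complex is a known point where use of glucose and of fat is balanced.

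Each library held between 51328364 and 63828074 counts, and the smallest count of any of the 33 genes in any library was 187. Levels are given as FPKM, a fragment count scaled by gene length and by library size, in library 1 and library 2 of each age. Markers of several other cell types stood apart between the ages. The summed FPKM of 9 atrial muscle markers was 4419 and 1686 at 12 months, against 286 and 292 at 8 weeks. Of these 9, 7 were called higher and 0 lower. Myl7, among the 7, had 927 and 484 FPKM at 12 months, against 29.8 and 7.86 FPKM at 8 weeks. For 10 fat cell markers the sums were 501 and 518 at 12 months and 316 and 338 at 8 weeks; 7 of the 9 tested were called higher, with a median log2 fold change of 3.52 over the 9, and only Lep was at 0, in 1 library at 8 weeks. Most of these sums is Lpl, which other cells also express, with 321 and 338 FPKM at 12 months and 260 and 288 FPKM at 8 weeks, and which was not called, while Adipoq was 14.8-fold higher. For 10 endothelial markers the sums were 191 and 184 at 12 months and 378 and 368 at 8 weeks, and all 10 were called lower, Pecam1 among them. For 6 mesothelial markers they were 24.5 and 23.0 at 12 months and 2.18 and 3.55 at 8 weeks. The 10 markers of heart muscle summed to 8830 and 9297 FPKM at 12 months and to 11292 and 10900 FPKM at 8 weeks, with 4 called higher and 4 called lower, so the labelled tissue was present in every library. Whether the same parts of the heart and of attached tissue entered each library was not tested. In heart RNA, such a difference, fewer cells of a type and less RNA per cell cannot be told apart. The part of these markers in the results below was not tested.

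At 12 months 19 of the 33 genes were higher and 6 were lower, and 8 did not pass the test (edgeR's quasi-likelihood test, Benjamini-Hochberg adjusted p below 0.05 over 12027 genes). Thus 57.6% of the set was called higher, where 20.1% of all tested genes were, and 18.2% was called lower, where 17.5% of all tested genes were. The median log2 fold change of the set, 12 months over 8 weeks, was 0.47, beside 0.01 over all tested genes. In FPKM, 23 genes had both 12-month libraries above both 8-week libraries and 6 had both below. Over all tested genes the corresponding shares were 41.4% and 31.1%. The 4 genes at least 2-fold higher were Pdk4, Pdpr, Pcx and Pdk1, and no gene was 2-fold lower. Leaving out an 8-week library takes the spread between libraries from the 12-month pair alone. The log2(FPKM + 1) values of that pair had a Pearson correlation of 0.968, against 0.991 for the 8-week pair. Without the first and without the second 8-week library, the log2 fold change of Pdk2 was 0.25 and 0.28, beside 0.26 with all libraries. That of Mpc1 was -0.23 and -0.43, beside -0.33. What costs calls in these fits was not tested. Fewer genes of the set were called without the first 8-week library, and also without the second. Pdk2, Pdp1, Pdp2, Sucla2 and Got2 lost their call in both cases, as did the lower genes other than Mpc2. Cs, Idh3a and Dlst lost theirs without the second library, when Pdk3 passed the test instead. Leaving out either 12-month library cost the calls of at most 2 genes: Mpc1 and Pdp1 without the first, Pdp1 and Pdp2 without the second, when Pdk3 and Me3 passed. Of all calls 53.45% were higher. With limma on log2(FPKM + 1) in place of edgeR that share was 60.56%, the median of all tested genes was 0.05, and 18 members were called higher and 4 lower. With limma and the FPKM of every library also set to one sum, the share was 77.6%, the median 0.16, and 23 members were called higher and 1, Mpc2, lower.

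**Figure D1:**
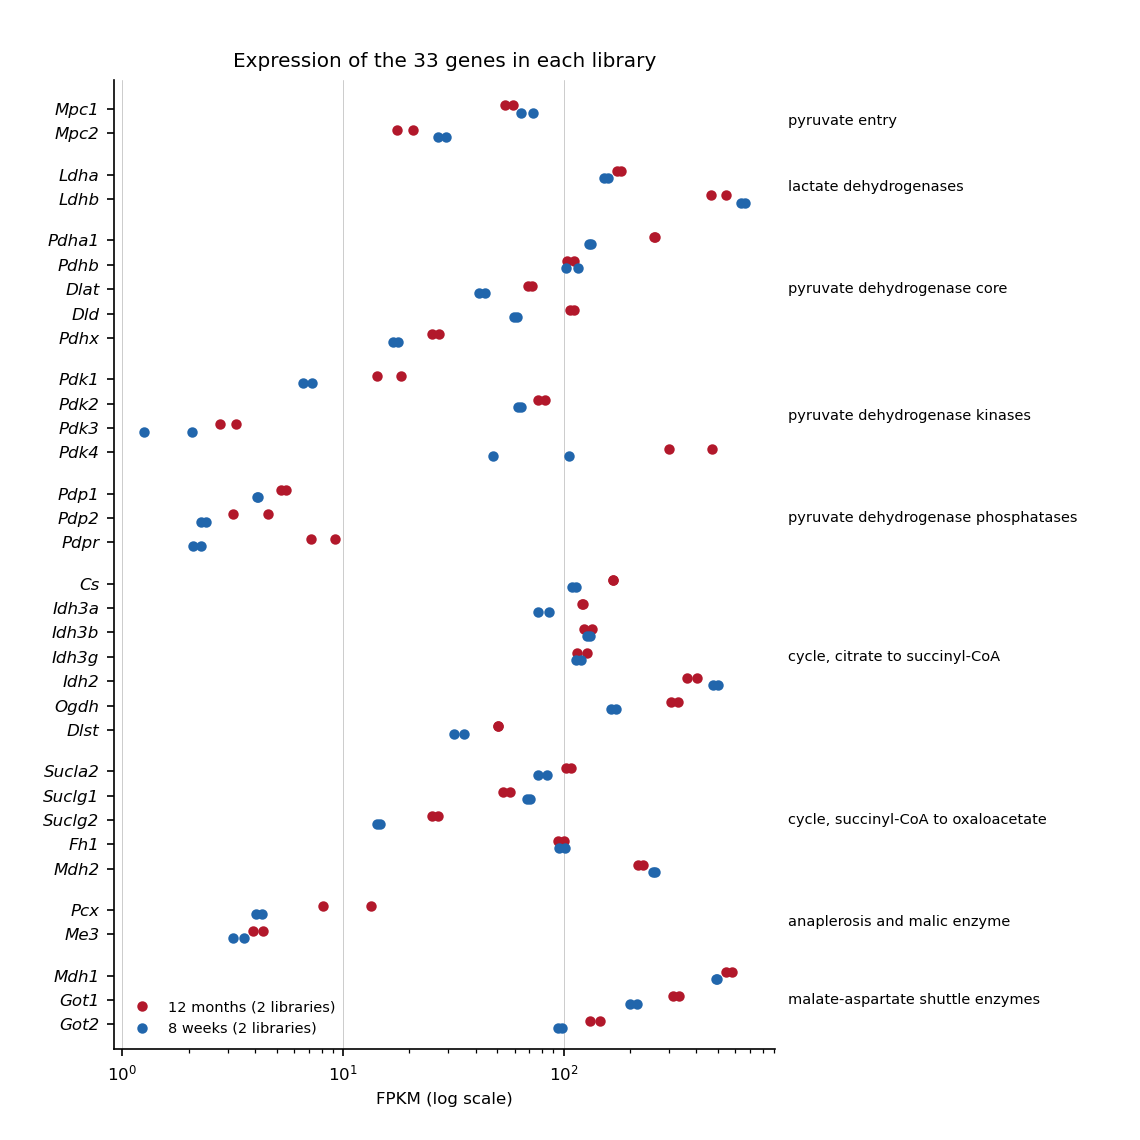
FPKM (log axis) of each of the 33 genes in the 2 libraries at 12 months (red) and the 2 at 8 weeks (blue), in the order of the route. Pdk4 spans 300 and 472 FPKM at 12 months against 48.1 and 106 at 8 weeks, while Pdhb, Idh3b, Idh3g and Fh1 overlap between the ages.

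**Figure D2:**
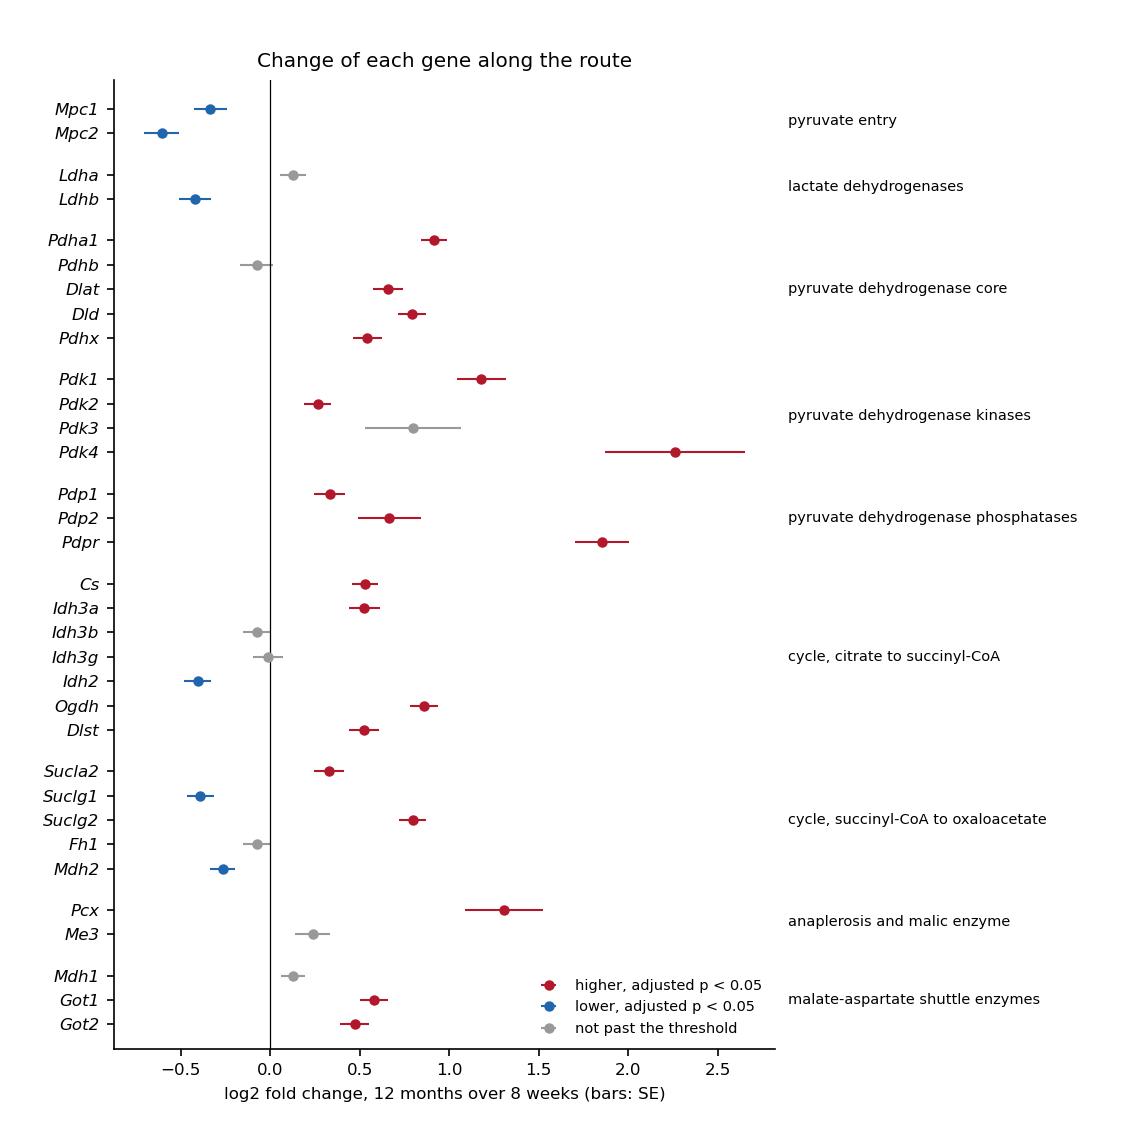
Log2 fold change of each gene, 12 months over 8 weeks, with its standard error as a bar (n = 2 libraries per age). Genes called higher are red (19), genes called lower blue (6) and the others grey (8); Suclg1 and Suclg2, partners in one enzyme, lie on opposite sides of 0.

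Entry of pyruvate was the step where both genes fell. Mpc1 and Mpc2 are the subunits that pair to form the mitochondrial pyruvate carrier. Mpc2 had 17.7 and 20.8 FPKM at 12 months, against 29.2 and 26.9 FPKM at 8 weeks. Every 12-month value was below every 8-week value, and Mpc2 fell by 0.61 ± 0.10 on the log2 scale (SE, adjusted p = 0.00606). Mpc1 had 54.1 and 59.2 FPKM at 12 months, against 73.1 and 63.9 FPKM at 8 weeks, without overlap, and fell by 0.33 ± 0.09 (adjusted p = 0.0346). The call for Mpc1 depends on how reads were divided between it and Mpc1-ps, a processed copy with no introns. Mpc1 lies on chromosome 17 (GRCm38, chr17:8282904-8297661, plus strand), and Mpc1-ps on chromosome 12 (chr12:110858565-110858894). Over the 330 bases of the copy's annotated transcript, 329 are identical to the Mpc1 transcript. The first 300 bases of that alignment are shown to let the likeness be seen, with the differing base in capitals (annotation GENCODE M21):
Mpc1: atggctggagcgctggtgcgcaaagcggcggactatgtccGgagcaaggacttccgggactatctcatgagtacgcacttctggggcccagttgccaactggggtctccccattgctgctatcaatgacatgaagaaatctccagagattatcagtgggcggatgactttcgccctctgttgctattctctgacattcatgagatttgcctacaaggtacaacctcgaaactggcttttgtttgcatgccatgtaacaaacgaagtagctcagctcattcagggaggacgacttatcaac
Mpc1-ps: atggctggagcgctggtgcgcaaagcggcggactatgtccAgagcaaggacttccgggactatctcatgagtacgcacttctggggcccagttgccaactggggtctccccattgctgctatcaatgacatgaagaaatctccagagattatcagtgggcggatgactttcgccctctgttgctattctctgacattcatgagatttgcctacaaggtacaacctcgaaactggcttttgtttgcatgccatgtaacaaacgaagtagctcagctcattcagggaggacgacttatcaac
A fragment that does not cover that base fits either gene inside this stretch. Mpc1-ps held 4793 and 4919 counts at 12 months and 4285 and 4893 counts at 8 weeks, against 6731 and 6844 counts of Mpc1 itself at 12 months and 8807 and 9320 at 8 weeks. The copy therefore took 41.6% and 41.8% of the summed counts at 12 months, against 32.7% and 34.4% at 8 weeks. Tested alone, Mpc1-ps had a log2 fold change of 0.17 ± 0.08 (adjusted p = 0.125). With the counts of the gene and its copy summed, the log2 fold change of Mpc1 was -0.14 and no longer passed the test (adjusted p = 0.2505). On the opposite strand of Mpc1, 4930506C21Rik had 97 and 104 counts at 12 months and 311 and 252 counts at 8 weeks. No near-identical copy was found for Mpc2 at a mean of 0.5 FPKM or more.

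**Figure D3:**
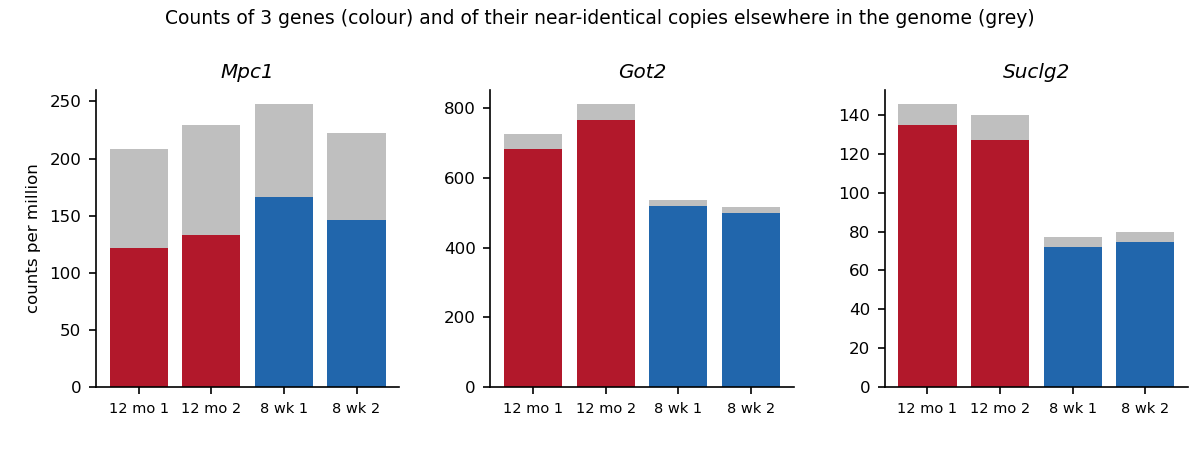
CPM (counts scaled to library size) of Mpc1, Got2 and Suclg2 (colour: red at 12 months, blue at 8 weeks) and of their near-identical copies elsewhere in the genome (grey), stacked for each library. The grey part is over 30% of the bar for Mpc1 and under 10% for the other genes.

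Lactate dehydrogenase is a tetramer of subunits from Ldha and Ldhb, and Ldhb gives the form typical of heart muscle. Ldhb had 468 and 545 FPKM at 12 months, against 665 and 636 FPKM at 8 weeks, and fell by 0.42 ± 0.09 on the log2 scale (adjusted p = 0.0138). Ldha, the form typical of skeletal muscle, had 174 and 181 FPKM at 12 months and 153 and 160 FPKM at 8 weeks, and did not pass the test (0.13 ± 0.07, adjusted p = 0.211). The ratio of Ldhb to Ldha within a library, which no scaling between libraries can alter, was 2.69 and 3.01 at 12 months, against 4.35 and 3.99 at 8 weeks. Both 12-month ratios lay below both 8-week ratios.

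Of the 5 core subunits of the pyruvate dehydrogenase complex, 4 rose and 1 did not pass the test. Pdha1, the X-linked E1 alpha subunit that carries the sites the kinases phosphorylate, had 259 and 258 FPKM at 12 months, against 133 and 131 FPKM at 8 weeks. Libraries of one age differed by under 2% while the ages differed 1.88-fold, a log2 fold change of 0.91 ± 0.07 (adjusted p = 0.0012). Its partner Pdhb, the E1 beta subunit, had 104 and 112 FPKM at 12 months and 116 and 103 FPKM at 8 weeks, and the ages overlapped (-0.08 ± 0.09, adjusted p = 0.537). The ratio of Pdha1 to Pdhb was 2.49 and 2.31 at 12 months, against 1.15 and 1.27 at 8 weeks. Dlat encodes the E2 transacetylase core. It had 71.6 and 68.8 FPKM at 12 months, against 44.1 and 41.4 FPKM at 8 weeks, a log2 fold change of 0.66 ± 0.08 (adjusted p = 0.00282). Dld, the E3 dihydrolipoamide dehydrogenase that the complex shares with the 2-oxoglutarate dehydrogenase complex, had 112 and 107 FPKM at 12 months, against 61.7 and 59.7 FPKM at 8 weeks. It rose by 0.79 ± 0.08 on the log2 scale (adjusted p = 0.00167). Pdhx, which anchors E3 to the E2 core, had 27.3 and 25.2 FPKM at 12 months and 17.7 and 16.9 FPKM at 8 weeks, and rose by 0.54 ± 0.08 (adjusted p = 0.00459). The E2 to anchor ratio, Dlat over Pdhx, moved little: 2.62 and 2.73 at 12 months and 2.48 and 2.45 at 8 weeks.

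All 4 kinase genes were above their 8-week values in both 12-month libraries, and 3 passed the test. Pdk4, the isoform known to be induced by fasting and by fatty acids, had 300 and 472 FPKM at 12 months, against 48.1 and 106 FPKM at 8 weeks. It had the largest fold change of the 33 genes, 4.79-fold, with a log2 fold change of 2.26 ± 0.39 (adjusted p = 0.00735), and 135 of all tested genes (1.12%) had a larger one. Its 8-week libraries differed more than those of any other of the 33 genes: library 2 was 1.57-fold above library 1 at 12 months and 2.2-fold above it at 8 weeks. Without 1 library the log2 fold change of Pdk4 lay between 1.80 and 2.94, and it passed the test each time. Of the 10 fat cell markers, 6 were higher in library 2 than in library 1 at 12 months and 3 at 8 weeks. The bases before the RefSeq start of Pdk4 are given as the promoter of that gene (GRCm38.p6, chr6:5496279-5496528, minus strand, 250 bases, none of the 6 motifs named further on being present to capitalise):
Pdk4 promoter: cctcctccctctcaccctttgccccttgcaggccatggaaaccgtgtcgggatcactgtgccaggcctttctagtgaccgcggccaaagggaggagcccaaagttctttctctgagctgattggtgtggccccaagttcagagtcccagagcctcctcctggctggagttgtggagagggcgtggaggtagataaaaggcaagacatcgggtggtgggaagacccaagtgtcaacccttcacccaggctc

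Pdk1, a kinase known as a target of the hypoxia-inducible factors, had 18.3 and 14.2 FPKM at 12 months, against 6.57 and 7.21 FPKM at 8 weeks. It rose by 1.18 ± 0.14 on the log2 scale (adjusted p = 0.00241). Pdk2, a broadly expressed isoform, had 76.4 and 82.1 FPKM at 12 months and 62.4 and 64.2 FPKM at 8 weeks, a rise of 0.26 ± 0.07 (adjusted p = 0.0361). Pdk3, the X-linked isoform and the lowest of the 4, had 3.28 and 2.76 FPKM at 12 months and 1.26 and 2.07 FPKM at 8 weeks, and did not pass the test (0.80 ± 0.27, adjusted p = 0.0609). The 4 kinases together came to 398 and 571 FPKM at 12 months, against 118 and 180 FPKM at 8 weeks. Pdk4 made up 75.4% and 82.6% of that sum at 12 months and 40.7% and 59.1% at 8 weeks. The ratio of Pdk4 to Pdk2 was 3.92 and 5.75 at 12 months, against 0.771 and 1.65 at 8 weeks, so Pdk2 exceeded Pdk4 in 1 library only, the first at 8 weeks.

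The phosphatase genes rose as well. Pdpr, the regulatory subunit that lowers the magnesium sensitivity of the phosphatase, had 9.23 and 7.16 FPKM at 12 months, against 2.27 and 2.09 FPKM at 8 weeks. Its fold change of 3.61 was the next largest after Pdk4, with a log2 fold change of 1.85 ± 0.15 (adjusted p = 0.0012). On the opposite strand lies 9430091E24Rik, with 135 and 163 counts at 12 months and 57 and 74 counts at 8 weeks, against 2776 and 2000 counts of Pdpr at 12 months and 663 and 736 at 8 weeks. Pdp1, the calcium-stimulated catalytic subunit, had 5.26 and 5.50 FPKM at 12 months and 4.08 and 4.13 FPKM at 8 weeks, a rise of 0.33 ± 0.09 (adjusted p = 0.0282). Pdp2, the other catalytic subunit, had 3.17 and 4.57 FPKM at 12 months and 2.28 and 2.39 FPKM at 8 weeks, a rise of 0.67 ± 0.18 (adjusted p = 0.029). Without the second 12-month library the log2 fold change of Pdp2 was 0.40 and did not pass the test. Kinase FPKM over the FPKM of the 2 catalytic phosphatases was 47.2 and 56.7 at 12 months, against 18.6 and 27.6 at 8 weeks. With Pdk4 left out, the same ratio was 11.6 and 9.83 at 12 months and 11.0 and 11.3 at 8 weeks, and the ages overlapped.

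**Figure D4:**
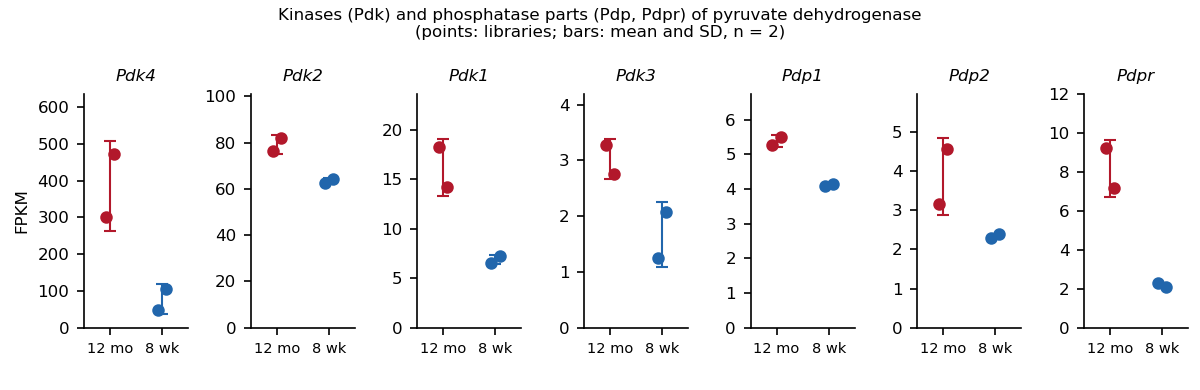
FPKM of the 4 kinases and 3 phosphatase parts of pyruvate dehydrogenase in each library (points), with mean and SD as bars (n = 2 per age), 12 months in red and 8 weeks in blue. Axes start at 0 and differ between genes; Pdk4 reaches 472 FPKM and the phosphatase parts stay under 10 FPKM.

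From citrate to succinyl-CoA, 4 of 7 genes rose, 1 fell and 2 did not pass the test. Cs, citrate synthase, which joins acetyl-CoA to oxaloacetate, had 167 and 168 FPKM at 12 months, against 114 and 109 FPKM at 8 weeks, a rise of 0.53 ± 0.07 on the log2 scale (adjusted p = 0.00354). The NAD-linked isocitrate dehydrogenase is built of alpha, beta and gamma subunits, and only the gene of the catalytic alpha subunit was called. Idh3a had 121 and 123 FPKM at 12 months, against 85.5 and 76.8 FPKM at 8 weeks, and rose by 0.53 ± 0.08 (adjusted p = 0.00594). Idh3b had 124 and 134 FPKM at 12 months and 132 and 128 FPKM at 8 weeks (-0.07 ± 0.08, adjusted p = 0.472). Idh3g had 115 and 128 FPKM at 12 months and 120 and 114 FPKM at 8 weeks (-0.01 ± 0.08, adjusted p = 0.933), and both beta and gamma overlapped between the ages. The ratio of Idh3a to Idh3g was 1.05 and 0.960 at 12 months, against 0.711 and 0.674 at 8 weeks.

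Idh2, the NADP-linked isocitrate dehydrogenase of the mitochondrion, moved the other way from Idh3a. It had 364 and 403 FPKM at 12 months, against 474 and 500 FPKM at 8 weeks, and fell by 0.41 ± 0.08 on the log2 scale (adjusted p = 0.00944). The ratio of Idh3a to Idh2 was 0.332 and 0.304 at 12 months and 0.180 and 0.153 at 8 weeks. Ogdh and Dlst encode the E1 and E2 parts of the 2-oxoglutarate dehydrogenase complex, which shares Dld with pyruvate dehydrogenase. Ogdh had 329 and 306 FPKM at 12 months, against 165 and 173 FPKM at 8 weeks, a rise of 0.86 ± 0.08 (adjusted p = 0.00141). Dlst had 50.2 and 50.3 FPKM at 12 months and 35.3 and 31.8 FPKM at 8 weeks, a rise of 0.52 ± 0.09 (adjusted p = 0.00603). In both genes the 12-month libraries lay above the 8-week ones, and Ogdh over Dlst was 6.55 and 6.09 at 12 months against 4.66 and 5.43 at 8 weeks. All 3 genes of this complex, with Dld, thus rose. One of the RefSeq windows of Ogdh (GRCm38.p6, chr11:6292329-6292578, plus strand) is given because it holds the core letters of the NRF1 motif, in capitals. NRF1 is nuclear respiratory factor 1, a known activator of genes for mitochondrial proteins.
Ogdh promoter: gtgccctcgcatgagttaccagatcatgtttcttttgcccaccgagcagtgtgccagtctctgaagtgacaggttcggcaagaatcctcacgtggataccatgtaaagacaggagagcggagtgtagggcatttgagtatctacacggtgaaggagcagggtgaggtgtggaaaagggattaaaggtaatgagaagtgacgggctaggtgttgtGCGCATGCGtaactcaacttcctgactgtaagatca

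From succinyl-CoA to oxaloacetate, 2 of 5 genes rose, 2 fell and 1 did not pass the test. Succinyl-CoA synthetase pairs the alpha subunit, from Suclg1, with either an ADP-forming beta subunit, from Sucla2, or a GDP-forming one, from Suclg2. Suclg2 had 27.0 and 25.4 FPKM at 12 months, against 14.2 and 14.7 FPKM at 8 weeks, and rose by 0.80 ± 0.08 on the log2 scale (adjusted p = 0.00148). Sucla2 had 102 and 109 FPKM at 12 months and 84.3 and 76.8 FPKM at 8 weeks, a rise of 0.33 ± 0.08 (adjusted p = 0.0251). The shared alpha subunit Suclg1 had 53.2 and 57.2 FPKM at 12 months, against 70.4 and 68.5 FPKM at 8 weeks, and fell by 0.39 ± 0.08 (adjusted p = 0.0105). Suclg1 over Suclg2 was 1.97 and 2.25 at 12 months, against 4.95 and 4.65 at 8 weeks, a 0.440-fold shift in the ratio. Suclg2 made up 20.8% and 18.9% of the FPKM of the 2 beta subunits at 12 months and 14.5% and 16.1% at 8 weeks. Its processed copy Gm15163 on chromosome X held 7.50% and 9.40% of the summed counts at 12 months and 6.32% and 6.18% at 8 weeks, and with the copy's counts added the log2 fold change was 0.83.

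Fh1, fumarase, had 94.2 and 101 FPKM at 12 months and 101 and 95.4 FPKM at 8 weeks, overlapped between the ages and did not pass the test (-0.07 ± 0.08, adjusted p = 0.496). Mdh2, the mitochondrial malate dehydrogenase that closes the cycle, had 217 and 229 FPKM at 12 months, against 261 and 254 FPKM at 8 weeks, and fell by 0.27 ± 0.07 on the log2 scale (adjusted p = 0.0286). Sucla2 also matches the NRF1 core in its RefSeq window, with another base at the position where the core allows any. That window is shown for comparison with Ogdh (GRCm38.p6, chr14:73552536-73552785, plus strand, motif on the other strand, in capitals):
Sucla2 promoter: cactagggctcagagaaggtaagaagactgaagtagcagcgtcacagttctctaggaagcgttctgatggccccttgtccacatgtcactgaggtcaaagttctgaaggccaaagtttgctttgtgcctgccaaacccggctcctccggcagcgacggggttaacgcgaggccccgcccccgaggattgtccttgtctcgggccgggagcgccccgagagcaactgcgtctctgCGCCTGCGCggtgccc

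**Figure D5:**
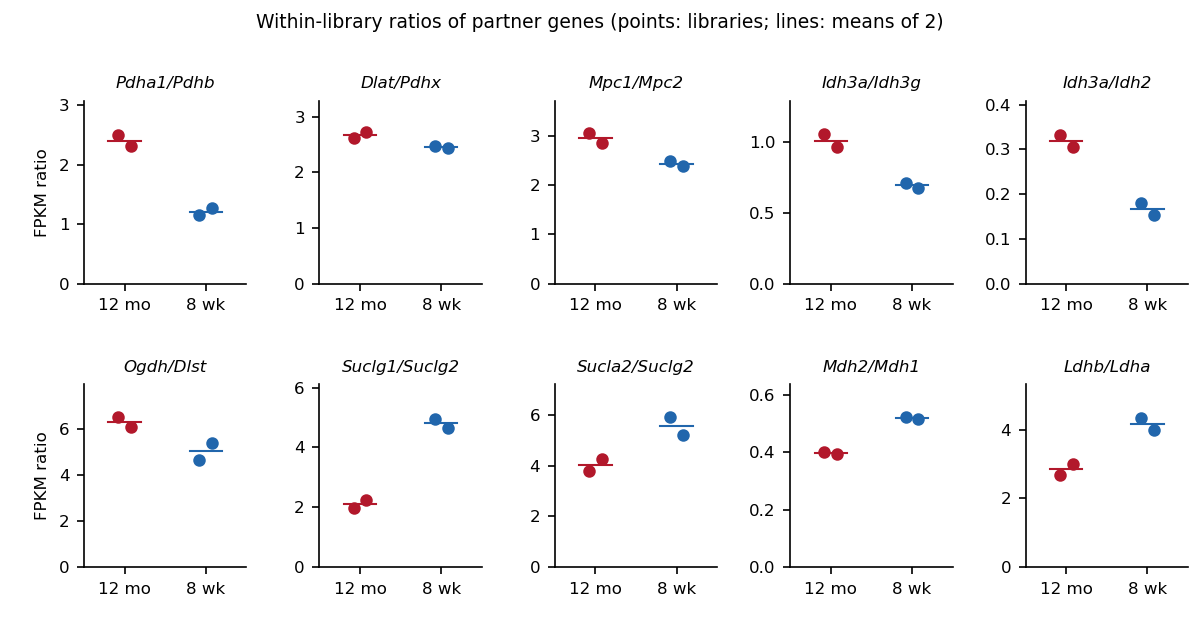
Within-library FPKM ratios of partner genes, each axis starting at 0, for the 2 libraries at 12 months (red) and the 2 at 8 weeks (blue), with a line at the mean. Pdha1 over Pdhb is 2.49 and 2.31 at 12 months against 1.15 and 1.27 at 8 weeks, and Suclg1 over Suclg2 is 1.97 and 2.25 at 12 months against 4.95 and 4.65 at 8 weeks.

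Pcx, pyruvate carboxylase, replenishes oxaloacetate and is abundant in fat cells as well as liver. It had 8.11 and 13.4 FPKM at 12 months, against 4.05 and 4.29 FPKM at 8 weeks, and rose by 1.31 ± 0.22 on the log2 scale (adjusted p = 0.00669). Library 2 at 12 months was 1.66-fold above library 1, the widest gap of any of the 33 genes between the 12-month libraries. The fat cell marker Adipoq had 9.16 and 14.6 FPKM at 12 months and 1.07 and 0.474 FPKM at 8 weeks, while 4 of the 10 fat cell markers had the other order between the 12-month libraries. Their part in the rise of Pcx was not tested. Lrfn4, on the opposite strand of Pcx, had 601 and 640 counts at 12 months and 628 and 704 at 8 weeks, beside 2305 and 3546 counts of Pcx at 12 months and 1114 and 1428 at 8 weeks. Me3, the mitochondrial NADP-linked malic enzyme, had 4.35 and 3.93 FPKM at 12 months and 3.57 and 3.18 FPKM at 8 weeks. Its ages did not overlap, but the difference did not pass the test (0.24 ± 0.10, adjusted p = 0.105).

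Of the 3 malate-aspartate shuttle enzymes counted outside the cycle, 2 rose. The shuttle also uses Mdh2, which fell as given above. Got1, the cytosolic aspartate aminotransferase, had 314 and 334 FPKM at 12 months, against 216 and 200 FPKM at 8 weeks, a rise of 0.58 ± 0.08 on the log2 scale (adjusted p = 0.00369). Got2, its mitochondrial counterpart, had 131 and 147 FPKM at 12 months and 98.1 and 94.4 FPKM at 8 weeks, a rise of 0.47 ± 0.08 (adjusted p = 0.00713). Mdh1, the cytosolic malate dehydrogenase, had 542 and 582 FPKM at 12 months and 497 and 492 FPKM at 8 weeks and did not pass the test (0.13 ± 0.07, adjusted p = 0.192). The mitochondrial to cytosolic ratio of the malate dehydrogenases, Mdh2 over Mdh1, was 0.401 and 0.394 at 12 months, against 0.525 and 0.517 at 8 weeks. That of the aminotransferases, Got2 over Got1, was 0.419 and 0.440 at 12 months and 0.454 and 0.473 at 8 weeks. Both ratios were lower in each 12-month library.

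Got2 has a processed copy, Got2-ps1, on chromosome 5 (GRCm38, chr5:138364260-138365552) that moved far more than Got2 itself. Got2-ps1 had 22.2 and 21.2 FPKM at 12 months, against 4.63 and 4.91 FPKM at 8 weeks, a log2 fold change of 2.13 ± 0.11 (adjusted p = 0.0012). Gm10874, which overlaps it, had 4.73 and 6.45 FPKM at 12 months and 4.60 and 4.32 FPKM at 8 weeks. It did not pass the test (0.26 ± 0.17, adjusted p = 0.254). How reads were divided between these overlapping entries was not tested. Of 1293 aligned bases, 1282 are identical to Got2 and 11 differ. The stretch of 150 bases picked for holding the most differing bases, 4, is shown with these in capitals. Elsewhere in the alignment the transcripts are harder to distinguish:
Got2: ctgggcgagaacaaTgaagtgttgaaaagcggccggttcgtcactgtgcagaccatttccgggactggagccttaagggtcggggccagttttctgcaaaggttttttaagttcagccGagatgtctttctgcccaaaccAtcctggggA
Got2-ps1: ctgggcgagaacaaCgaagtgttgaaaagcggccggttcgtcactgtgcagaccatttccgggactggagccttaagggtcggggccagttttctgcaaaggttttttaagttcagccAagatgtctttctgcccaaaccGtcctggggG
Got2 and its 2 copies, Got2-ps1 and the overlapping Gm10874, were summed to see what the division of reads could change. The copies held 5.92% and 5.68% of the sum at 12 months, against 3.44% and 3.50% at 8 weeks, and the summed log2 fold change was 0.51 (adjusted p = 0.005615). In all, 6 members had 7 such copies, of which those of Ldha, Ldhb and Pdhb held under 1% of the summed counts in every library.

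Genes that work beside the 33 did not all move with them. Of 10 genes for the remaining cycle steps, 2 were higher, 1 was lower and 7 did not pass the test. Within succinate dehydrogenase the subunits again split. Sdha, the flavoprotein, had 273 and 281 FPKM at 12 months, against 168 and 163 FPKM at 8 weeks (0.68 ± 0.07, adjusted p = 0.00173). Sdhb, the iron-sulfur subunit, had 198 and 216 FPKM at 12 months, against 286 and 254 FPKM at 8 weeks (-0.44 ± 0.09, adjusted p = 0.0129). Of 7 tested carriers of cycle metabolites, 4 were higher and 1 lower. They include Slc16a1, a plasma membrane carrier of lactate and pyruvate (58.5 and 51.7 FPKM at 12 months, 24.4 and 26.5 FPKM at 8 weeks, log2 fold change 1.06). The aspartate-glutamate carriers of the shuttle, Slc25a12 (0.60) and Slc25a13 (0.68), were also higher. Slc25a11, another carrier of the shuttle, did not pass the test (0.13 ± 0.08, adjusted p = 0.244). None of 3 tested genes of lipoate and thiamine cofactors passed the test. Of 12 rows of cytosolic and NADP-linked counterparts, 5 were higher and 1 lower; Me1, cytosolic malic enzyme and also a fat cell gene, had 32.6 and 37.2 FPKM at 12 months and 16.0 and 16.6 FPKM at 8 weeks (1.04). Of 5 genes of glutamate and alanine entry, 3 were higher and 1 lower, with Glul, glutamine synthetase, at 1.10 ± 0.11 and Gpt, alanine aminotransferase, at -0.63 ± 0.11. Over all 54 tested rows of these and the regulator and calcium lists, 18 were higher and 6 lower, with a median log2 fold change of 0.23. Over all tested genes 20.1% were higher and 17.5% lower, with a median of 0.01, and most of these short lists hold too few genes for their counts to be read against those shares.

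The genes that rose had longer transcripts than those that fell. The median transcript length was 3220 nt for the 19 higher genes, 1698 nt for the 6 lower ones and 3096 nt over all tested genes. Across the 33 genes the log2 fold change and the transcript length had a Spearman correlation of 0.59, and across all tested genes it was 0.17; genes of one library share its depth and RNA quality and are not independent. For GC content the value over the 33 genes was -0.09. With the trend of fold change on length taken out over all genes, 17 members were called higher and 4 lower, Pdp1, Pdp2, Mpc1 and Mdh2 no longer passing the test. Their log2 fold changes were then 0.26, 0.59, -0.24 and -0.22, so that of Pdp2 was nearly as large as before. The part of RNA quality in the length pattern was not tested.

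The 300-base RefSeq promoter windows (250 bases before the start and 50 after it) were searched for 6 motifs, on both strands, for 31 of the 33 genes. The full site of the estrogen-related receptors, TNAAGGTCA, was in 0 of the 31 genes. It was in 1.28% of all 32851 windows and in 0.858% of 8738 tested genes with a window. The shorter site AAGGTCA, which lies within the full site, was in Got1 and Ogdh, 2 of 31 (6.45%). It was in 4.72% of all windows and in 3.86% of the tested genes. The NRF1 core GCGCANGCG was in Dld, Ogdh, Sucla2 and Ldha, 4 of 31 (12.9%), against 6.25% of all windows and 15.6% of 8738 tested genes with a window. Of these 4 genes, all but Ldha rose, where 17 of all 31 genes with a window were called higher. The ETS letters CCGGAAG were in Dlst, Mpc1, Idh3b and Idh3g, 12.9% of the 31, against 8.86% of all windows and 20.2% of the tested genes. These 4 genes comprise 1 that rose, 1 that fell and 2 that did not pass the test. The FOXO letters GTAAACA were in 0 members (3.65% of windows, 3.03% of the tested genes). The hypoxia letters TACGTG were in Pdk3 alone (3.23% of windows, 4.66% of the tested genes). A match describes letters only, and genes with several start sites count once if any window matches.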

How the data were processed

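Poly(A) RNA was read as strand-specific dUTP libraries in pairs, per the labels' protocols. The submitters' processing notes name cutadapt 1.9, HISAT2 2.2.1, StringTie 2.1.6, DESeq2, edgeR and the build GRCm38; their roles, the strand setting of the counting and the treatment of multiply mapping reads have no statement in the labels. The table gives, per the file headers, FPKM and an estimated count for each gene and library; 0 value columns belonged to no sample. FPKM was computed by the authors with 1 length per gene, which is 1.09 times (Pdp2) to 3.55 times (Me3) the length of a single transcript of the 33 genes. Levels of different genes therefore compare only roughly, while changes of a gene between ages are unaffected.

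The deposited expected counts, which are whole numbers already, were tested with edgeR 4.0.16 in R 4.3.3: quasi-likelihood F test, TMM scaling, age as the only term, genes with a mean FPKM of at least 1, two-sided, called below 0.05 after Benjamini-Hochberg adjustment over 12027 genes. Standard errors were taken as |log2 fold change| over the root of F. FPKM and the TMM-scaled counts use different library scales (FPKM summed to 494057 and 496506 at 12 months and 549019 and 546455 at 8 weeks), so small differences can take another sign in FPKM. Ratios within a library were not tested and are given as values; an exact permutation test of 2 libraries against 2 cannot reach the threshold. Copies were found with blastn 2.17.0 (identity of at least 90% over at least 200 nt and 50% of the copy, mean FPKM of at least 0.5). Promoters come from RefSeq (GRCm38.p6), transcripts from GENCODE M21. Alternatives used DESeq2 1.42.0, limma 3.58.1 on log2(FPKM + 1) and mgcv 1.9.3. The fit was tested on simulated data.

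The 33 genes, the other gene lists and the alternatives were chosen with earlier results of these data known. All 33 are named. Of each further list at most 4 genes with the smallest p are named, and up to 3 defining markers per cell type. Slc25a11 was added outside this rule, after its values were seen. 1 gene that this rule names is not reported here.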

Additional observations from a re-analysis of the deposited data

How the results depend on the processing

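All 25 called genes kept their direction in all 18 alternatives in which they were fitted, but 11 of the 19 higher ones (Pdha1, Dlat, Dld, Pdhx, Pdk1, Pdk4, Pdpr, Ogdh, Suclg2, Pcx and Got1) and 0 of the 6 lower ones kept their call in every one. No paired analysis was possible because the titles carry the numbers 5 and 6 at 12 months and 4 and 5 at 8 weeks, which share only 1 number. Leaving out each library in turn gave between 2077 and 4658 genes called over the table, against 4520 with all libraries, 12 to 19 members higher and 0 to 6 lower. A minimum of 5 FPKM gave 2990 called genes and an adjusted p below 0.01 gave 2272, with 2 members lower; limma on log2(FPKM + 1) gave 4 members lower, and with one FPKM sum as well it gave 1. Genes that did not pass the test could change sign. With limma and one FPKM sum Pdhb was at 0.13, Idh3b at 0.13, Fh1 at 0.13 and Idh3g at 0.19. Idh3g was also at 0.030 with library totals only, 0.017 with a minimum of 0.1 FPKM, 0.013 with no minimum and 0.048 with limma at either pseudocount (1 or 0.1). Without 1 library Pdhb ranged between -0.16 and 0.017 and Idh3g between -0.071 and 0.034. The cause was not tested. Where an age was left with 1 library, that library was assumed to vary like those of the other age. Depth limits Pdk3 most, with 187 to 503 counts per library.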

Other observations

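Of 10 regulators of these genes, 3 were higher and 1 was lower, where 20.1% of all tested genes were higher and 17.5% lower. Ppara, a fatty acid receptor that is a known activator of Pdk4, had 6.67 and 5.24 FPKM at 12 months, against 1.27 and 1.01 FPKM at 8 weeks (log2 fold change 2.32 ± 0.19, adjusted p = 0.0012). Esrrg, an estrogen-related receptor, had 6.30 and 5.82 FPKM at 12 months, against 2.2 and 1.95 FPKM at 8 weeks (1.49 ± 0.11, adjusted p = 0.0012). The coactivator Ppargc1a had 18.2 and 19.8 FPKM at 12 months, against 8.84 and 8.46 FPKM at 8 weeks (1.08 ± 0.07, adjusted p = 0.0012). Sirt4, a mitochondrial sirtuin that acts on the lipoyl groups of pyruvate dehydrogenase, had 3.32 and 4.31 FPKM at 12 months and 5.29 and 5.61 FPKM at 8 weeks (-0.57 ± 0.15, adjusted p = 0.0296). The ages did not overlap for any of these 4 genes.

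Calcium in the mitochondrial matrix activates Pdp1, Idh3 and Ogdh. Of 7 tested genes of its uptake, 1 was higher and 1 lower. Micu2, a gatekeeper of the uniporter, had 21.3 and 19.9 FPKM at 12 months, against 13.5 and 12.8 FPKM at 8 weeks (0.59 ± 0.08, adjusted p = 0.00367). Smdt1, which links the gatekeepers to the pore, had 21.0 and 22.2 FPKM at 12 months, against 36.2 and 35.7 FPKM at 8 weeks (-0.79 ± 0.07, adjusted p = 0.00142).

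2 further genes were named after their values were seen. Nnt, the transhydrogenase that feeds NADPH in the mitochondrion beside Idh2, stands on 2 rows. On one it had 3.56 and 4.03 FPKM at 12 months, against 15.5 and 0.533 FPKM at 8 weeks, and on the other 102 and 99.5 FPKM at 12 months, against 27.3 and 65.3 FPKM at 8 weeks; the 8-week libraries disagreed on both, and neither row passed the test. Whether reads were divided differently between the rows or the mice differed at this gene was not tested, so these levels are uncertain. The other is Xist, X-linked, which had 11.0 and 12.5 FPKM at 12 months, against 21.9 and 20.7 FPKM at 8 weeks, and 4 Y-linked genes stayed at or below 0.178 FPKM in every library; Pdha1, Pdk3 and Idh3g are the 3 X-linked genes of the 33.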
